A study of Mus musculus with 4 samples.

Results

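The genes that build diphthamide were examined together with the gene of the protein that carries it, Eef2, and the gene of the kinase that acts on that protein, Eef2k. The set was chosen by name and holds 10 of the 35522 genes listed in each deposited table: Dph1, Dph2, Dph3, Dph5, Dnajc24, Wdr85 (now named Dph7), Atpbd4 (now named Dph6), Ovca2, Eef2 and Eef2k. Ovca2 overlaps Dph1 and is read beside it. Liver RNA was sequenced in 2 libraries labelled Dph1 KO and 2 labelled Control, all from C57BL/6 livers taken 24 h, or 1 day, after the liver carcinogen diethylnitrosamine (DEN). Both groups received DEN. The part of Dph1 that was removed, the cells or the Cre driver concerned, and the age and sex of the mice are not given in these sources. Replicate numbers follow the order of deposit and pair no libraries. Nor do the labels say that libraries came from separate animals, so a p-value reflects the spread among these 4 libraries alone, which may be technical.

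Diphthamide is a modified histidine found at a single place in the proteome, near the tip of elongation factor eEF2, the GTPase that moves the ribosome along the mRNA by a codon. DPH1 and DPH2 form the enzyme that starts the modification, fed with electrons by DPH3 and helped by the J-domain protein DNAJC24. The methyltransferase DPH5 then builds a methylated intermediate, the product of Wdr85 removes a methyl group, and the product of Atpbd4 adds the final amide. Diphtheria toxin inactivates eEF2 through this residue. The kinase eEF2K slows elongation by phosphorylating eEF2 at another site.

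The residue that these genes act on is encoded by codon 715 of mouse Eef2, in exon 12 of the GENCODE M21 model. It was located as the only histidine codon there followed by an arginine codon and a run of glycine codons. The coding stretch around it is shown because it is the common target of the pathway, with the histidine codon in capitals, on the plus strand of chr10:81181273-81181335 (GRCm38).
Eef2: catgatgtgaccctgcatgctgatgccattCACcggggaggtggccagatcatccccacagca

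The window around the start of Ovca2 is shown because Ovca2 begins inside Dph1, after the last exon that encodes DPH1. It comes from RefSeq (GRCm38.p6), on the minus strand of chr11:75178759-75179058, with 250 bases before the start and 50 after it. Capitals mark the 107 bases of that Dph1 exon, exon 12, at 75178925 to 75179031.
Ovca2: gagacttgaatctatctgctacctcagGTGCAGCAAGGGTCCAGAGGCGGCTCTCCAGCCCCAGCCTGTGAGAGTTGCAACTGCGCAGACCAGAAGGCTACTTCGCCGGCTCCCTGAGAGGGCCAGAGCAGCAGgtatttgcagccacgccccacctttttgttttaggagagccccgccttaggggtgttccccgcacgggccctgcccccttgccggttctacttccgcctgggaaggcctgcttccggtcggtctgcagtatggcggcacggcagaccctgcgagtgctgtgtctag

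The libraries held 20410978 and 21137358 gene reads in Dph1 KO and 19474596 and 20355790 in Control. In edgeR's quasi-likelihood test with Benjamini-Hochberg adjustment over 13303 genes, 12.3% of genes were called at an adjusted p under 0.05, with 4.86% higher and 7.47% lower in Dph1 KO. Without adjustment 34.2% of genes had a p under 0.05. The values of the groups did not overlap for 67.4% of genes, which were higher in Dph1 KO for 34.9% and lower for 32.5%. Leaving out 1 library moved the calls to between 180 and 2599 higher and between 346 and 2806 lower, with 569 or 346 lower without Control replicate 1 or 2 and the most in both directions without Dph1 KO replicate 2. All 8 hepatocyte markers were detected, at a summed level of 51644 to 53415 CPM, read counts scaled to the library total with TMM factors, in Dph1 KO and 44061 to 56324 CPM in Control. In such bulk tissue, fewer cells of a type and less RNA per cell cannot be told apart.

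Of the 10 genes, 2 fell in Dph1 KO livers, Dph1 and Eef2k, and 8 were not called. The share lower, 2 of 10, is read against 7.47% of all genes. In the same test 0 rose, while 4 were lower and 2 higher at an unadjusted p under 0.05, beside 34.2% of all genes in either direction. DESeq2 called 3 of the 10 lower, Eef2 being the added gene, and 0 higher, beside 1377 of 13303 genes lower. Levels did not overlap between the groups for 8 of the 10, with 5 lower and 3 higher in Dph1 KO, beside 67.4% of all genes. The median log2 fold change of the 10 genes was -0.41, against 0.041 over all genes tested.

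Dph1 (chromosome 11, 75177643 to 75190483 on the minus strand, 13 exons) had the lowest log2 fold change of the set with TMM scaling, and the second lowest, above Eef2k, with the trend on GC content and length removed. It had 17.8 and 31.5 CPM in the Dph1 KO libraries, and 70.3 and 68.3 CPM in the Control libraries. Both Dph1 KO libraries stood below both Control libraries and differed more from each other than the Control pair did. Its log2 fold change was -1.49 (SE 0.26; edgeR adjusted p = 0.0107), and 252 of the 13303 genes had a lower one. Uniquely matched exon reads alone gave a log2 fold change of -2.08 (SE 0.25; edgeR adjusted p = 0.000788).

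Many Dph1 reads matched more than one gene. Of the exon reads listed for Dph1, 41.9% and 38.9% were unique in Dph1 KO, and 58.3% and 58.1% in Control. The overlap with Ovca2 covers the whole of Dph1 exon 13, 745 bases at 75177643 to 75178387 that encode no part of the DPH1 protein and lie inside Ovca2 exon 2. Dph1 has 1358 exon bases outside it, all in exons 1 to 12, and Ovca2 has 1897. Ovca2 exon 1, at 75178612 to 75178808, and the Ovca2 intron lie between Dph1 exons 12 and 13. With exon ends cut to the deposited gene regions, the GENCODE exons summed to exactly the exon lengths in the authors' tables.

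Reads were therefore counted in 3 segments: unique exon reads of Dph1, unique exon reads of Ovca2, and the non-unique exon reads of both genes together, taken as the shared exon. The tables do not give the position of single reads, so placing the non-unique reads in the shared exon rests on the gene models. The unique reads of Dph1 exons 1 to 12 numbered 162 and 252 in Dph1 KO and 742 and 702 in Control. As RPKM, here reads per kilobase of the segment scaled to the gene reads of the library, this was 7.31 ± 2.08 in Dph1 KO and 26.7 ± 1.88 in Control (SD, n = 2 each). Single Dph1 KO libraries stood at 21.9% and 32.8% of the Control mean. The shared exon held 404 and 573 reads in Dph1 KO and 686 and 632 in Control. It had an RPKM of 31.5 ± 6.94 in Dph1 KO and 44.5 ± 3.97 in Control, or 59.7% and 81.8% of the Control mean in single Dph1 KO libraries. Neither segment overlapped between the groups, but the upstream exons stood much further apart than the shared exon.

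**Figure D1:**
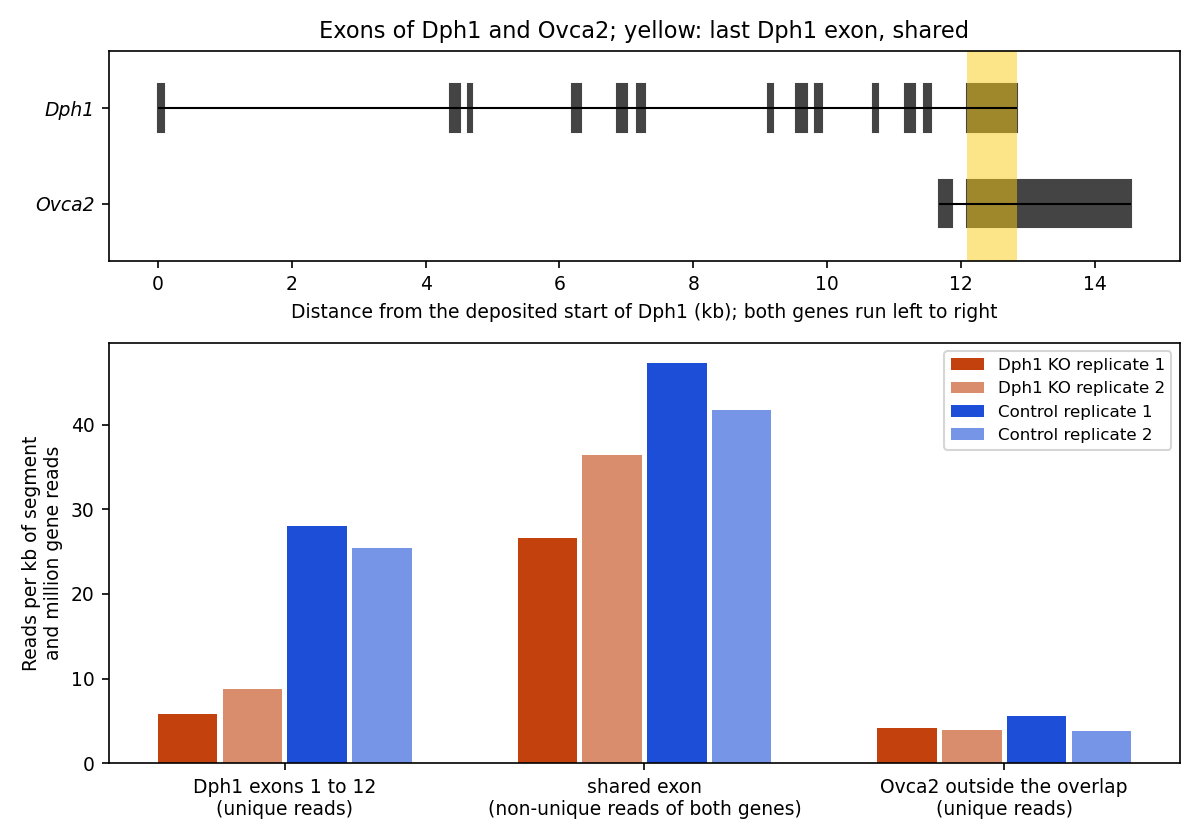
Upper panel: exons (boxes) of Dph1 and Ovca2 by distance in kb from the deposited start of Dph1, with the shared last exon of Dph1 in yellow. Lower panel: RPKM of each segment, 1 bar per library; over exons 1 to 12 the Dph1 KO bars average 7.31 against 26.7 in Control, and over the shared exon 31.5 against 44.5.

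With the shared reads entered as a feature of their own beside all unique exon reads, 17.0% of 12064 features were called, 9.71% lower. Dph1 exons 1 to 12 fell with a log2 fold change of -2.08 (SE 0.25; edgeR adjusted p = 0.000777). The shared exon had a log2 fold change of -0.71 (SE 0.23; edgeR adjusted p = 0.0498). That call was lost without Control replicate 1 (adjusted p = 0.263), Control replicate 2 (0.207) or Dph1 KO replicate 1 (0.0968), and leaving out 1 library moved the value between -1.01 and -0.43. The upstream exons were called in all of these fits, at -2.46 to -1.74.

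The ratio of the 2 segments differed between the groups. Per base, the shared exon held 4.55 and 4.14 times the reads of Dph1 exons 1 to 12 in Dph1 KO, and 1.69 and 1.64 times in Control. The 95% Clopper-Pearson intervals were 3.78 to 5.49 and 3.57 to 4.83 in Dph1 KO, against 1.52 to 1.87 and 1.47 to 1.83 in Control, and cover counting error only. The shared exon also exceeded the sum of the other densities of both genes, by a factor of 2.67 and 2.87 in Dph1 KO and 1.40 and 1.43 in Control. Neither ratio overlapped between the groups, and the exact two-sided permutation p was 0.333 for each, the smallest that 2 against 2 libraries allow. In Dph1 KO, 55.7% and 69.1% of the shared reads were listed under Dph1, and in Control 77.3% and 80.1%. The unique exon reads split in a like way, with 50.5% and 61.6% of them in Dph1 in Dph1 KO and 78.1% and 82.6% in Control.

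Ovca2 (chromosome 11, 75175943 to 75178808 on the minus strand, 2 exons) encodes a predicted serine hydrolase. Its unique exon reads numbered 159 and 157 in Dph1 KO and 208 and 148 in Control. With all its reads it had 14.3 and 15.3 CPM in Dph1 KO, and 19.8 and 15.2 CPM in Control, and the groups overlapped. It was not called with all reads (log2 fold change -0.24, SE 0.21, edgeR adjusted p = 0.431) or over its own exons (-0.45, SE 0.24, adjusted p = 0.193). Its direction with all reads was opposite, and not called, in 2 of 15 alternative settings.

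Among unique Dph1 exon reads, the share across exon junctions did not differ detectably between the groups. This share leaves intron reads out. Reads across exon junctions made up 64.8% and 67.1% of unique Dph1 exon reads in Dph1 KO, and 65.6% and 67.0% in Control. The Control values lie within the Dph1 KO intervals of 56.9% to 72.1% and 60.9% to 72.8% (Clopper-Pearson). Over all unique Dph1 reads, introns included, junction reads were 105 of 194 and 169 of 291 in Dph1 KO. In Control they were 487 of 762 and 470 of 722, a higher share in both libraries, which was not tested. The share of intron reads was higher in both Dph1 KO libraries. Positions of intron reads are not given, so those listed for Dph1 may include RNA of Ovca2, which begins in a Dph1 intron. Unique intron reads were 32 of 194 and 39 of 291 unique Dph1 reads in Dph1 KO, or 16.5% and 13.4%, and 20 of 762 and 20 of 722 in Control, or 2.62% and 2.77%. All 4 intervals, 11.6% to 22.5% and 9.71% to 17.9% in Dph1 KO against 1.61% to 4.02% and 1.70% to 4.25% in Control, kept the groups apart, and the exact two-sided permutation p was 0.333, the smallest possible here.

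Exon reads of Dph1 fell relative to its intron reads in a test over all genes. The difference of the exon and intron log2 fold changes was -1.74 (SE 0.34; edgeR adjusted p = 0.0163), with the library as a block. Only 0.562% of 12278 genes were called in this comparison, 0.285% with exon reads lower and 0.277% with exon reads higher relative to intron reads, and 427 genes had a lower value than Dph1. Unique reads gave -2.18 (adjusted p = 0.00183). The call was lost without Control replicate 1 (-1.58, adjusted p = 0.475) and Control replicate 2 (-1.91, adjusted p = 0.330), fits in which 1 gene in all was called. Outside mitochondrial genes, introns held 5.77% and 4.67% of all reads in Dph1 KO and 4.05% and 3.36% in Control, and the part of this in the Dph1 value was not tested. The part of Ovca2 RNA in the Dph1 intron reads was not tested either. None of the other genes of the set was called in this comparison, and Ovca2 had a single intron read in all libraries together.

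**Figure D2:**
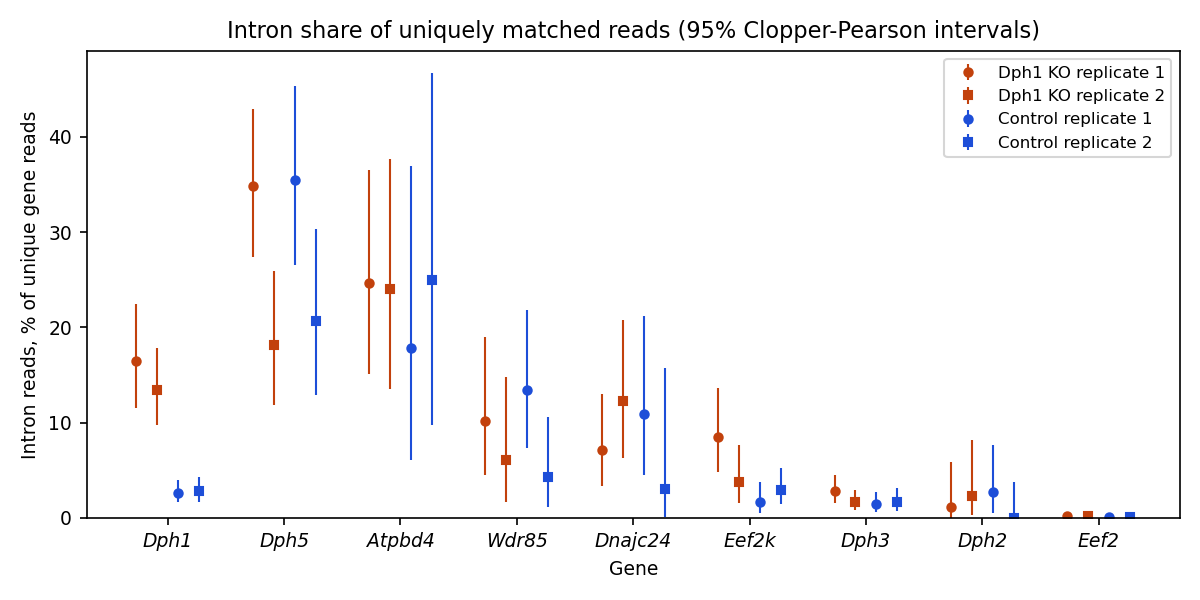
Intron reads as a percentage of uniquely matched gene reads (vertical axis) for 9 genes, 1 point per library with its 95% Clopper-Pearson interval, which covers counting error only. Dph1 stands at 16.5% and 13.4% in Dph1 KO and 2.62% and 2.77% in Control, while the values of Dph2, Dph5, Atpbd4, Wdr85 and Dnajc24 overlap between the groups. Eef2 and Eef2k are also higher in Dph1 KO without overlap. Eef2k stands at 8.52% and 3.80% in Dph1 KO and 1.65% and 2.91% in Control. Dph3 is nearly tied between its closest libraries, at 2.78% and 1.652% in Dph1 KO and 1.44% and 1.648% in Control. The share of all genes without overlap in this measure was not counted.

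None of the partners of DPH1 in the first step passed the test. Dph2 (chromosome 4, 117888643 to 117892003), the other subunit of the enzyme, had 3.90 and 3.93 CPM in Dph1 KO, and 6.09 and 5.28 CPM in Control. Both Dph1 KO libraries were lower, yet Dph2 was not called, at a log2 fold change of -0.54 (SE 0.26; edgeR adjusted p = 0.163). Dph3 (chromosome 14, 32080562 to 32085665), the electron donor, had 22.8 and 30.5 CPM in Dph1 KO, and 34.0 and 30.4 CPM in Control, with overlap between the groups and a log2 fold change of -0.27 (SE 0.21, edgeR adjusted p = 0.369). That value had the opposite sign in 1 of 15 alternative settings, without a call. The J-domain gene Dnajc24 (chromosome 2, 105966708 to 106003549) stood higher, at 5.38 and 4.12 CPM in Dph1 KO, and 3.48 and 1.84 CPM in Control. It rests on 127 and 90 reads in Dph1 KO and 64 and 33 in Control. Its groups did not overlap, though each pair was widely spread, and it was not called, at a log2 fold change of 0.84 (SE 0.34; edgeR adjusted p = 0.116). Leaving out 1 library moved this value between 0.45 and 1.36.

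None of the genes of the later steps passed the test with TMM scaling. Dph5 (chromosome 3, 115888183 to 115929323), the methyltransferase, had 8.22 and 7.68 CPM in Dph1 KO, and 7.18 and 6.67 CPM in Control. The difference was small and not called, at a log2 fold change of 0.20 (SE 0.22; edgeR adjusted p = 0.545), and it was negative, without a call, in 2 of 15 alternative settings. Wdr85 (chromosome 2, 24962422 to 24973471), whose product demethylates the intermediate, had 3.39 and 3.02 CPM in Dph1 KO, and 5.28 and 5.28 CPM in Control. It stood lower in both Dph1 KO libraries and was not called, at a log2 fold change of -0.72 (SE 0.27; edgeR adjusted p = 0.0890). With the trend on GC content and length removed it was called (-0.78, edgeR adjusted p = 0.0476). Atpbd4 (chromosome 2, 114516418 to 114654928), the amide-forming enzyme gene, had 2.92 and 2.47 CPM in Dph1 KO, and 1.58 and 1.33 CPM in Control, from 69 and 54 against 29 and 24 reads. It was higher in both Dph1 KO libraries and not called, at a log2 fold change of 0.89 (SE 0.33; edgeR adjusted p = 0.0928). Without scaling beyond the library total, which moved the median of all genes by 0.26 on the log2 scale, Atpbd4 and Dnajc24 were both called higher, at 1.15 and 1.10, beside 19.8% of all genes higher and 5.93% lower in that fit.

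Eef2 (chromosome 10, 81176631 to 81182509, 14 exons), the gene of the modified protein, had 1829 and 2152 CPM in Dph1 KO, and 3053 and 3531 CPM in Control. Both Dph1 KO libraries were lower, and the log2 fold change was -0.73 (SE 0.29; edgeR adjusted p = 0.112), which was not called. DESeq2 called it (-0.75, adjusted p = 0.0118), as did the edgeR fit without Dph1 KO replicate 2 (-0.83, adjusted p = 0.0392). With the GC and length trend removed it was -0.29 (SE 0.18; edgeR adjusted p = 0.329). Eef2 ranked 85th and 104th by TPM in Dph1 KO and 80th and 74th in Control among all genes, and 98.4% to 98.7% of its reads were unique.

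Eef2k (chromosome 7, 120842831 to 120907219, 20 exons) was the second gene of the set that fell. It had 7.46 and 8.42 CPM in Dph1 KO, and 16.5 and 19.1 CPM in Control. The Dph1 KO libraries were close to each other and far below both Control libraries. The log2 fold change was -1.17 (SE 0.21; edgeR adjusted p = 0.0114), and -1.32 (SE 0.17; adjusted p = 0.00203) with the GC and length trend removed. Nearly all of its reads were unique, 176 and 184 of 176 and 184 in Dph1 KO and 303 and 344 of 304 and 344 in Control. The call was lost without Control replicate 2 (-1.06, adjusted p = 0.0580) and with limma on log2(TPM + 1) (-0.62, adjusted p = 0.0865).

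Per length, Eef2 was far above the rest, at 1262 ± 52.8 TPM in Dph1 KO and 1592 ± 60.9 TPM in Control (SD, n = 2 each). In Control the order by the authors' TPM went on with Dph1, Dph3, Ovca2, Eef2k, Dph5, Dph2, Dnajc24, Wdr85 and Atpbd4. The ranges of Eef2k and Dph5, of Dph2 and Dnajc24, and of Dnajc24 and Wdr85 overlapped there. In Dph1 KO the ranges of Dph1 (21.1 ± 5.45 TPM) and Dph3 (16.9 ± 0.926 TPM) overlapped, as they did not in Control (48.9 ± 4.17 and 15.9 ± 2.31 TPM). Eef2k moved to the place below Dph2, at 2.19 ± 0.0786 TPM in Dph1 KO and 3.89 ± 0.123 TPM in Control. Atpbd4 had the lowest mean in both groups, its range overlapping that of Wdr85 in Dph1 KO, at 1.51 ± 0.406 TPM in Dph1 KO and 0.647 ± 0.162 TPM in Control.

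The transcripts of the paired enzyme subunits were not at like levels. Per base of unique exon, Dph1 exons 1 to 12 held 3.31 and 5.58 times the reads of Dph2 in Dph1 KO, and 12.7 and 13.7 times in Control. Dph1 thus stayed above Dph2 per length in every library, the Dph1 KO libraries included.

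**Figure D3:**
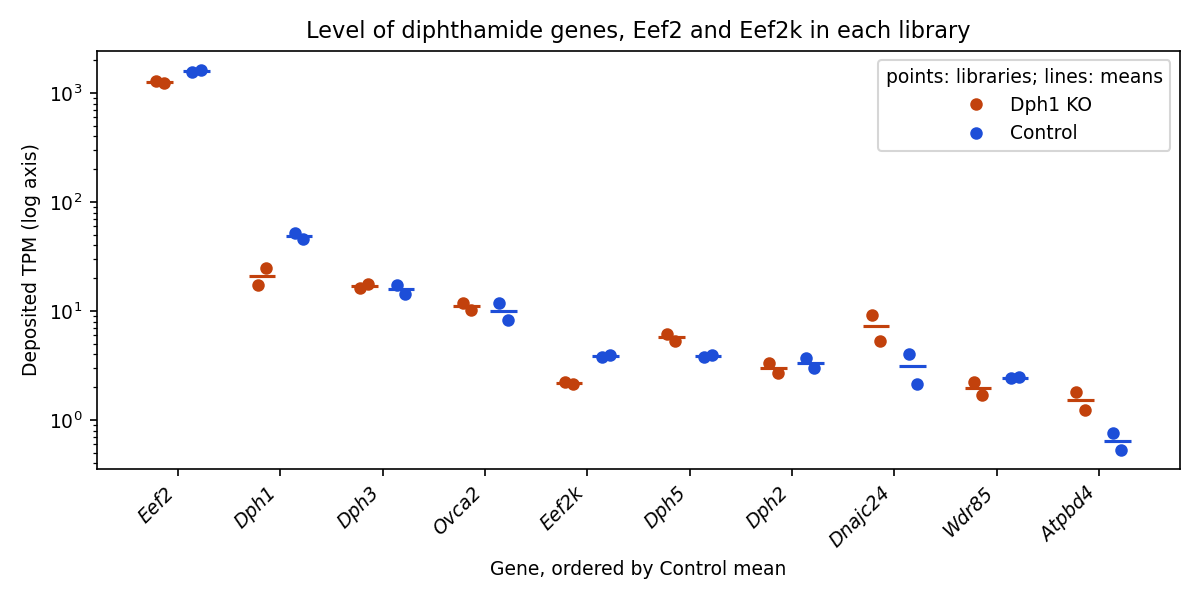
Deposited TPM of the 10 genes on a log axis, 1 point per library with a line at each mean, Dph1 KO left of Control for each gene. Eef2 lies near 1262 TPM in Dph1 KO and 1592 TPM in Control, the other genes between 0.533 and 51.8 TPM. The gap between group means is widest on this axis for Dph1, Dnajc24 and Atpbd4. These values have no TMM scaling, with which the log2 fold change of Eef2k (-1.17) was larger in size than those of Atpbd4 (0.89) and Dnajc24 (0.84).

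The fold changes of the set have to be read beside the GC content of the transcripts, with which fold changes moved over all genes. In 5 equal classes of protein-coding genes from low to high GC content, the median log2 fold change was 0.48, 0.29, 0.066, -0.23 and -0.56. The genes with positive fold changes, Atpbd4 (34.8% GC), Dph5 (37.2%) and Dnajc24 (46.7%), lay in the lowest 2 classes. Dph3 (46.7%) lay in the same class as Dnajc24 but had a negative log2 fold change, at -0.27. Dph1 (56.5%) and Eef2 (57.0%) lay in the highest. Eef2 stood 0.16 below the median of its class, whereas Dph1 stood 0.93 below and Eef2k (50.6% GC) 1.23 below. With a smoothed fit to GC content and to exon length taken out of each library, 3 of the 10 genes were called lower and 0 higher, beside 5.90% of 12482 genes lower and 5.09% higher in that fit. Dph1 then had a log2 fold change of -1.05 (SE 0.17; edgeR adjusted p = 0.00637) with all reads and -1.61 (SE 0.16; adjusted p = 0.000828) with unique exon reads. Dnajc24 kept a value of 0.77 (SE 0.32; adjusted p = 0.143), while Atpbd4 came to 0.37 and Dph5 to -0.19.

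**Figure D4:**
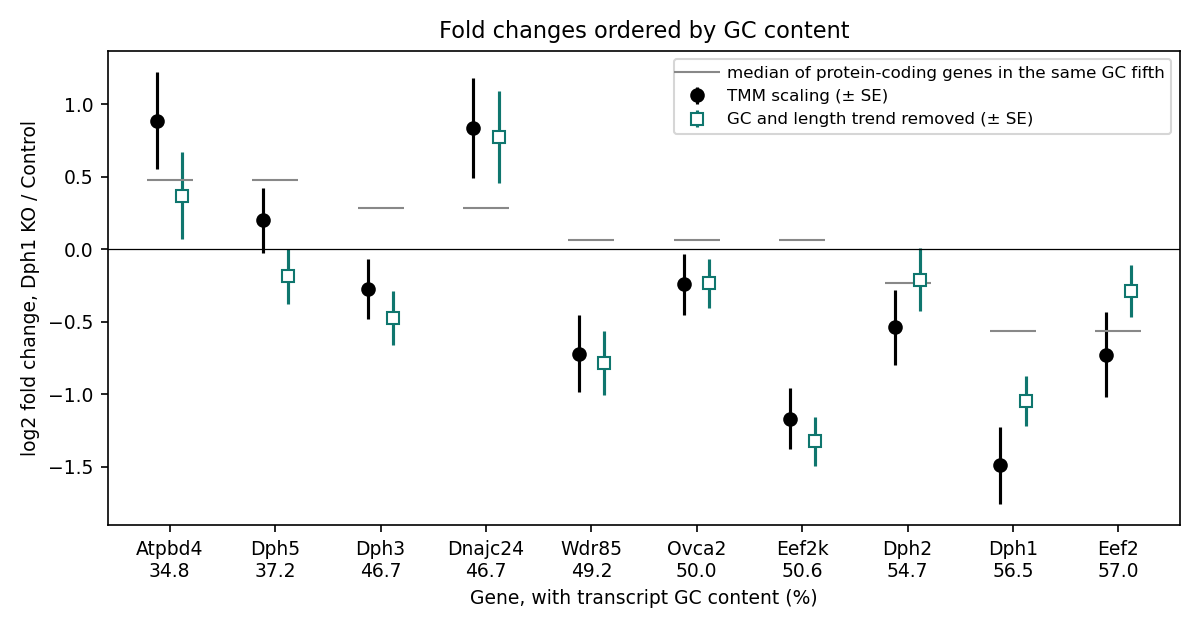
Log2 fold change of Dph1 KO over Control for each gene, ordered by transcript GC content, with TMM scaling (filled circles) and with the GC and length trend removed (open squares), each ± SE. Grey dashes give the median of protein-coding genes in the same class of GC content; Eef2k and Dph1 lie below it by 1.23 and 0.93, and Eef2 by 0.16.

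Genes that act on eEF2 or its kinase were mostly not called. Of 20 such genes 1 fell and 0 rose by edgeR, where 3 were lower and 3 higher at an unadjusted p under 0.05, and the median log2 fold change was 0.030. The gene that fell was Rps6ka1, which encodes a kinase that inhibits eEF2K, at 24.8 and 28.9 CPM in Dph1 KO, and 48.6 and 65.0 CPM in Control. It had a log2 fold change of -1.08 (SE 0.22, edgeR adjusted p = 0.0171), and this call was lost without Control replicate 2 (adjusted p = 0.143). DESeq2 called 2 lower and 0 higher, beside 1377 of 13303 genes lower and 621 higher. Without Dph1 KO replicate 2 more genes were called, in this list as over the whole table. Mtor, the central growth kinase upstream of eEF2K, had 70.5 and 62.4 CPM in Dph1 KO, and 62.2 and 74.9 CPM in Control.

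Among 13 other elongation and termination factors and enzymes of hypusine, the modified lysine of eIF5A, 1 fell and 0 rose, with 3 lower and 1 higher at an unadjusted p under 0.05 and a median of -0.035. Dhps, the first enzyme of hypusine synthesis, had 14.1 and 20.0 CPM in Dph1 KO, and 30.7 and 34.0 CPM in Control. It had a log2 fold change of -0.92 (SE 0.22, edgeR adjusted p = 0.0283), and this call was lost without Control replicate 2 (adjusted p = 0.141) and with the GC and length trend removed (-0.46, adjusted p = 0.0619). DESeq2 called 3 lower and 0 higher, beside 1377 of 13303 genes lower and 621 higher. More of the 13 were called without Dph1 KO replicate 2, as were more genes of the whole table.

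Elongator and the enzymes of wobble uridine modification, which in yeast share the electron donor Dph3 with the diphthamide pathway, held 2 falls and 0 rises among 13 genes. Over all genes, 7.47% fell and 4.86% rose. Without adjustment, 7 of the 13 were lower and 1 higher at a p under 0.05, beside 34.2% of all genes in either direction. The median log2 fold change of the 13 was -0.55. Trmt112, an activating partner of several methyltransferases, had 37.5 and 55.9 CPM in Dph1 KO, and 80.5 and 103 CPM in Control (log2 fold change -0.98, edgeR adjusted p = 0.0342). Ctu2, a subunit of the wobble uridine thiolase, had 10.9 and 17.8 CPM in Dph1 KO, and 24.4 and 30.6 CPM in Control (log2 fold change -0.94, edgeR adjusted p = 0.0404). Both calls were lost with the GC and length trend removed, at -0.47 and -0.42, and without Control replicate 2. DESeq2 called 3 lower and 0 higher among the 13, beside 1377 of 13303 genes lower and 621 higher. Ctu2 was also lost without Dph1 KO replicate 1. Without Dph1 KO replicate 2 more of the 13 were called, as were more genes of the whole table.

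Of 31 genes tested within 1 Mb of Dph1, 2 rose and 0 fell by edgeR, or 6.45% called, beside 12.3% of all genes. At an unadjusted p under 0.05, 5 were higher and 5 lower, beside 34.2% of all genes in either direction. Their median log2 fold change was 0.0077. Rtn4rl1, a Nogo receptor homologue gene that lies 3.51 kb from the Dph1 region, had 24.9 and 18.8 CPM in Dph1 KO, and 13.4 and 10.96 CPM in Control (log2 fold change 0.84, SE 0.22, edgeR adjusted p = 0.0387). Tlcd2 had 43.1 and 40.9 CPM in Dph1 KO, and 24.6 and 26.3 CPM in Control (log2 fold change 0.73, SE 0.19, edgeR adjusted p = 0.0367). Both were called with the GC and length trend removed, at 1.29 and 1.25, and both calls were lost without either Control library, that of Rtn4rl1 also without Dph1 KO replicate 1. Rilp, with the next lowest p, missed the threshold, at a log2 fold change of -0.75 (edgeR adjusted p = 0.0530), and was called lower in 5 of 15 alternative settings, DESeq2 among them (adjusted p = 0.0370). Serpinf2 and Serpinf1, named after their values were seen, were also lower without overlap and not called, at -1.01 and -0.91 (edgeR adjusted p = 0.0540 and 0.0596).

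The pattern of Dph1 over the 4 libraries was shared by other genes. Among 8756 genes with a mean of at least 5 CPM, those close to it by the root mean square difference of centred log2 CPM included Sh3pxd2b (0.050), Fdps (0.086), Tspan4 (0.087) and Slc7a5 (0.099). In these 4 genes, as in Dph1, Dph1 KO replicate 1 was lowest, which follows from picking them by likeness to Dph1 over these libraries. Within 0.2 of Dph1 lay 70 genes, so this likeness over 4 libraries is a description of level alone.

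Markers of other liver cells were measured beside the Dph1 reads that remain in Dph1 KO. Kupffer cell markers summed to 147 and 245 CPM in Dph1 KO and 248 and 259 CPM in Control. Of the 7, 1 was called lower, Cd68, at a log2 fold change of -1.18 (edgeR adjusted p = 0.0159). Cd68 held 114 and 106 CPM of the Control sums and was the only Kupffer marker lower without overlap. Emr1 and Vsig4 were higher without overlap and not called, at 0.55 and 0.50. The median log2 fold change of the 7 was 0.090. The endothelial markers summed to 159 and 157 CPM in Dph1 KO and 169 and 162 CPM in Control, with 0 of 6 called by edgeR and 0 at an unadjusted p under 0.05. The stellate cell markers stood at 145 and 122 CPM in Dph1 KO and 123 and 136 CPM in Control, with 1 of 6, Des, called lower. Lrat, of the same list, was higher without adjustment alone, at a log2 fold change of 0.84 (edgeR adjusted p = 0.0662). Bile duct markers came to 22.3 and 18.9 CPM in Dph1 KO and 34.4 and 20.5 CPM in Control. Of these, 0 of 5 were called by edgeR, against 2 lower without adjustment. Lymphocyte markers came to 7.33 and 8.0 CPM in Dph1 KO and 7.07 and 7.90 CPM in Control, and neutrophil markers to 0.975 and 2.06 against 2.28 and 1.00 CPM. Red cell markers came to 285 and 310 CPM in Dph1 KO and 730 and 1569 CPM in Control. Of the 3 lymphocyte markers tested, Cd79a fell, Ptprc had a log2 fold change of 0.59 and Cd4 of 0.094, neither called. Of the 3 red cell markers tested, Hba-a1, a globin gene, fell. Hba-a1 held 161 and 188 CPM of the Dph1 KO sums and 599 and 1390 CPM of the Control sums. Hbb-b1 and Alas2 were not called, at log2 fold changes of -0.85 and 0.032. No marker was at 0 in all libraries, and the part of these cells in the remaining Dph1 reads was not tested.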

How the data were processed

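Per the labels' protocols, RNA from frozen livers was made into stranded mRNA libraries; per the submitters' processing notes, the genome build was GRCm38 (mm10). The sources used here name no aligner or counter and do not say whether strand was used. The authors deposited whole-number read counts per gene (total and unique reads over genes, exons, junctions and introns). The deposited TPM and RPKM values were made by the authors from exon reads. The deposited ratios, a fraction from 0 to 1, give unique and intron shares. Other deposited columns, annotation that is not a score, give exon numbers and lengths.

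Total gene reads were filtered by filterByExpr, scaled by TMM and tested with edgeR 4.0.16 (R 4.3.3; glmQLFit, glmQLFTest) on genotype, with Benjamini-Hochberg adjustment and a threshold of 0.05. The SE is the log2 fold change divided by the square root of F. The exon and intron test had library and read class as terms. The biological coefficient of variation was 18.5%. GC content was that of each gene's longest transcript in GENCODE M21, matched by gene ID for 98.8% of 21058 protein-coding genes, and its trend was fitted with mgcv 1.9.3. Alternatives used DESeq2 1.42.0, limma 3.58.1, other scalings, filters and read classes, and each library left out. Python 3.11.15 and SciPy 1.17.1 served for tables. Scripts were tested on simulated data. There the main edgeR test called 5.97% of 1.5-fold, 52.2% of 2-fold and 100% of 4-fold changes. A gene that was not called may therefore still differ. Of 10 genes, 9 had a RefSeq start window.

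The genes of the set and the other lists were chosen with earlier results of these data known. The rule for named genes took all 10 genes, called genes of each list (up to 3, or the most abundant), the 5 genes most like Dph1 (of which 1 is not reported here) and the 3 neighbours with the lowest p.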

Additional observations from a re-analysis of the deposited data

How the results depend on the processing

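Over 15 alternatives, Dph1 stayed called lower in all, at log2 fold changes of -2.08 to -1.05, and Eef2k in 13, at -1.36 to -0.62. For the 10 genes together, 28 of the gene and setting pairs kept a call, 113 had none in either fit, 7 gained one and 2 lost one. Without scaling beyond the library total, 2634 genes were called higher and 2 of the 10 genes rose. With limma-trend on log2(TPM + 1), 2394 genes were called higher and 582 lower, and of the 10 genes 1 fell and 2 rose. Rises made up 77.0% and 80.4% of calls in these fits, against 39.4% with TMM scaling; the median of all genes moved by 0.26 in each. Leaving out 1 library gave 180 to 2599 genes higher, 346 to 2806 lower, 1 to 3 of the 10 genes lower, and 1 to 204 genes called in the exon and intron test. A genotype left with 1 library is assumed to vary as the other does. No paired analysis was possible because the labels give no replicate numbers shared between the groups; those used here follow the order of deposit and are names only. The lowest genes of the set, such as Atpbd4 at 24 to 69 reads per library, are limited by depth. The fits with GC trend and unique exon reads together, and with the shared exon, were chosen after seeing the data.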

Other observations

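Non-unique reads of Dph5 lay nearly all in introns. They numbered 37 and 41 intron reads in Dph1 KO and 24 and 24 in Control, of 91 and 64 intron reads in Dph1 KO and 62 and 43 in Control. The share of intron reads among unique Dph5 reads varied within each group, at 34.8% and 18.1% in Dph1 KO and 35.5% and 20.7% in Control. The non-unique reads of Eef2, 579 and 636 in Dph1 KO and 878 and 958 in Control, were all in exons.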
